A study of Mus musculus with 6 samples.

Results

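The insulin-like growth factor (IGF) axis of EpH4 cells was described from 10 genes, chosen by name: the ligands *Igf1* and *Igf2*, the receptors *Igf1r* and *Igf2r*, and the binding proteins *Igfbp2*, *Igfbp3*, *Igfbp4*, *Igfbp5*, *Igfbp6* and *Igfbp7*. They were chosen with earlier results of these data known, and all 10 are among the 17428 genes of the deposited RNAseq table. EpH4 is a mouse mammary epithelial cell line, so that all 6 libraries come from 1 line and carry no engineered allele. E cells were untreated, M cells had received TGFβ1, an inducer of epithelial-to-mesenchymal transition, for 7 days, and RE cells were M cultures kept for another 4 days after TGFβ1 was withdrawn. Each state has 2 libraries, described as biological replicates. Every error below is an SD or SE with n = 2 per state, and each SE comes from a fit of all 6 libraries. Serum and recombinant human insulin were in the medium of all 3 states. Insulin is itself a ligand of this receptor family, so none of the states was free of a ligand.

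IGF1 and IGF2 are secreted peptides. Both activate the receptor tyrosine kinase IGF1R, which signals through insulin receptor substrates, phosphoinositide 3-kinase, Akt and mTOR, whereas IGF2R, the mannose 6-phosphate receptor, takes up IGF2 for degradation and has no kinase. IGF-binding proteins hold the ligands outside the cell, and proteases such as PAPP-A release them. In the mammary gland, IGF1 from the stroma supports growth of the ducts and IGFBP5 is known from involution.

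The deposited values are sequenced bases summed over each gene. They were expressed as normalized coverage in ppm of the library. The libraries hold between 35782513 and 47928557 reads' worth of 50 bases. Coverage of 3 reads' worth or less was treated as the floor, which lies between 0.0635 and 0.0791 ppm. A gene was called when limma gave an absolute log2 fold change above 1 and a Benjamini-Hochberg adjusted p below 0.01 over the 13893 genes that passed a filter on low coverage. These fold changes are on the log2(ppm + 0.1) scale, so that differences of weakly covered genes come out smaller than their ratios of ppm. A positive sign stands for a higher level in the state named second, as in M cells for E vs. M. All 3 comparisons share libraries with each other.

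The E libraries stood apart in how far they differed from each other. The SD of the log2 difference between replicates over all tested genes was 0.558 in E cells, 0.317 in M cells and 0.309 in RE cells. This difference in E cells rose with transcript length, from a median of -0.28 under 2 kb to 0.66 over 8 kb. *Igf1r* and *Igf2r* have transcripts of 11409 and 8887 bases, and the values of the tested IGF axis genes that involve E cells are therefore given with and without each E library. Because all 6 libraries share a fit, the difference between the E libraries also enters the errors of M vs. RE. Among 8 epithelial markers, 7 were above 1 ppm in all 6 libraries, and *Krt19* was at or below 0.162 ppm. The summed coverage of the 8 was 1826 to 2223 ppm in E cells, 1434 to 1476 ppm in M cells and 987 to 1035 ppm in RE cells. Since RNA was taken from whole cultures, fewer cells expressing a gene and less RNA per cell cannot be told apart.

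**Figure D1:**
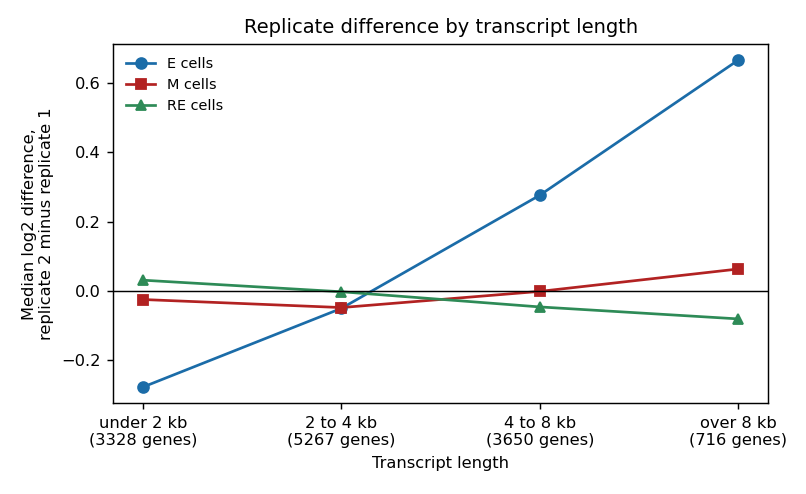
Median log2 difference between the replicates of each state (vertical axis, replicate 2 minus replicate 1) for tested genes in 4 classes of transcript length (horizontal axis), with 1 line per state. The E line runs from -0.28 to 0.66, while the medians of M and RE cells stay between -0.08 and 0.06.

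Of the 10 genes, 6 passed the filter: *Igf1*, *Igf1r*, *Igf2r*, *Igfbp3*, *Igfbp4* and *Igfbp7*. In E vs. M, 2 of these 6 were called, against 16.7% of all tested genes. *Igf1* was higher in M cells, as 8.14% of all tested genes were, and *Igfbp4* was lower, as 8.53% were. In M vs. RE, *Igf1* was the 1 gene called, against 12.7% of all tested genes, of which 8.08% were higher and 4.61% lower in RE cells, as *Igf1* was. In E vs. RE, 2 were called, again *Igf1* as higher and *Igfbp4* as lower in RE cells, against 9.07% of all tested genes (5.92% higher and 3.15% lower). With an adjusted p below 0.05 in place of 0.01, 2 genes were called in each comparison, against 21.3%, 16.6% and 13.5% of all tested genes. The libraries of the states compared did not overlap for 4 genes higher and 1 lower in E vs. M, against 34.5% and 36.5% of all tested genes, for 1 higher and 4 lower in M vs. RE, against 38.8% and 39.6%, and for 2 higher and 1 lower in E vs. RE, against 33.7% and 33.3%. *Igf2*, *Igfbp2*, *Igfbp5* and *Igfbp6* stayed below the filter and were not tested.

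**Figure D2:**
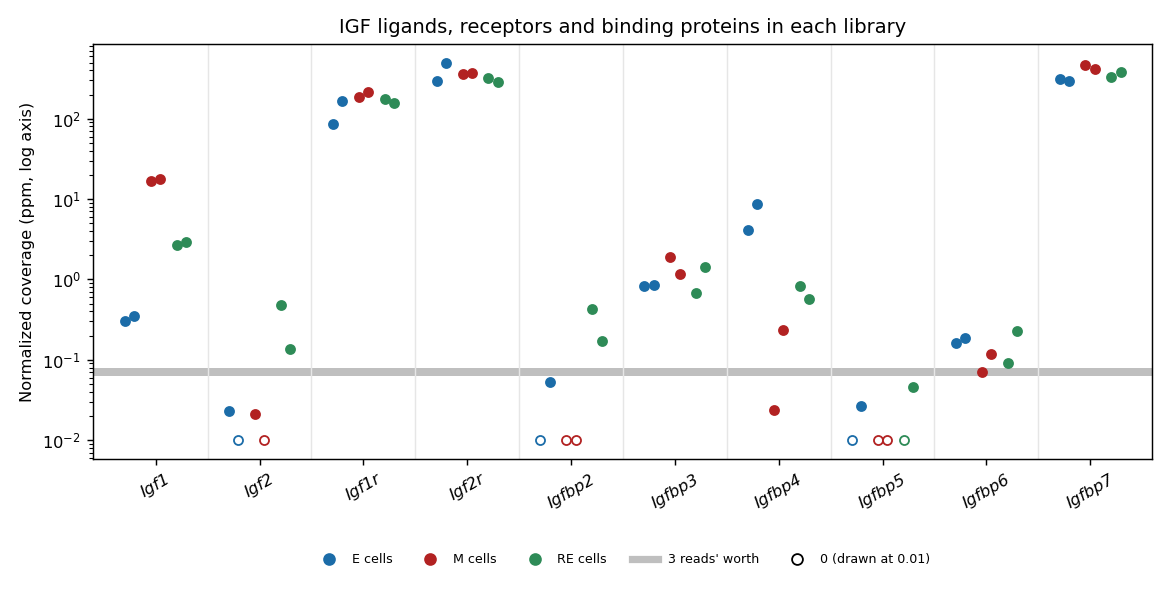
Normalized coverage of the 10 IGF axis genes (vertical axis, ppm on a log scale), with 1 point per library coloured by state, open circles for values of 0 and a grey band at 3 reads' worth. *Igf1* and *Igfbp4* separate the 3 states widely. At high coverage, the states of *Igfbp7* lie close together without overlap, whereas *Igf1r* and *Igf2r* overlap between E and RE cells.

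The promoters of *Igf1* and *Igfbp4* are shown because these are the 2 genes that were called. They come from RefSeq on GRCm38.p6, a newer build than the one the reads were mapped to, and run from 250 bases before to 50 bases after the annotated start. Capitals mark a TATA box match.
Igf1, chr10:87860861-87861160, plus strand: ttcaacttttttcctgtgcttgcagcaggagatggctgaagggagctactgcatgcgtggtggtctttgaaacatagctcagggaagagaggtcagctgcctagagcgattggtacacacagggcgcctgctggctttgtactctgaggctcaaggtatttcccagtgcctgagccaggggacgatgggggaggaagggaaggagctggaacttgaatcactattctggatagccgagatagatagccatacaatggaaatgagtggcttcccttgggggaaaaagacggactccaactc
Igfbp4, chr11:99040994-99041293, plus strand: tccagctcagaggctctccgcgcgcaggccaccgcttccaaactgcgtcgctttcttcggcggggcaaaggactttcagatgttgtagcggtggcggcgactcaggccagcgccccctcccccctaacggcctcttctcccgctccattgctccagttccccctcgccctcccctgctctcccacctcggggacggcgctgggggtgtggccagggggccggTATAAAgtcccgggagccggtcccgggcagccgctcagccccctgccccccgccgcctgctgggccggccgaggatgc
The *Igfbp4* window has a GC content of 71.3% and holds TATAAA, with its first base at position -28 from the start, whereas the *Igf1* window has a GC content of 52.3% and no such match. Motifs were searched on both strands. TATAAA occurs in 13.6% of all 32817 RefSeq windows of this length. Neither window holds the Smad motif CAGAC (49.6% of all windows), the AP-1 motif TGACTCA (5.20%), the TEAD motif GGAATG (14.7%) or the Zeb/Snail E-box CAGGTG (20.2%). This says only that these letters are not in these 300 bases.

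*Igf1* was low in E cells, high in M cells and intermediate in RE cells. Its coverage was 0.305 and 0.352 ppm in the E libraries, 16.7 and 17.6 ppm in the M libraries, and 2.65 and 2.95 ppm in the RE libraries. No library of one state reached into the range of another. The mean in M cells, 17.1 ± 0.701 ppm (SD), was 52.2-fold that in E cells, 0.328 ± 0.034 ppm (E vs. M log2 fold change 5.33, SE 0.20, limma adjusted p = 1.41e-05). After TGFβ1 withdrawal the mean was 2.80 ± 0.208 ppm, so that M cells were at 6.12-fold the level of RE cells (M vs. RE -2.57, SE 0.20, limma adjusted p = 0.000145). RE cells did not return to the E level and remained 8.53-fold above it (E vs. RE 2.76, SE 0.20, limma adjusted p = 0.000458).

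The size of the *Igf1* difference in E vs. M was 5.24 on the log2 scale without E replicate 1 and 5.40 without E replicate 2, and in E vs. RE it was 2.67 and 2.83. In E vs. RE the call was lost when either RE library was left out (2.85, limma adjusted p = 0.0146, without replicate 1 and 2.70, limma adjusted p = 0.0114, without replicate 2). Depth was low in E cells, with 13.1 and 13.4 reads' worth, against 705 and 729 in M cells and 125 and 129 in RE cells.

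Markers of cells known to make IGF1 were read beside this gene. The summed coverage of 7 fibroblast markers was 137 to 168 ppm in E cells, 989 to 1123 ppm in M cells and 1069 to 1252 ppm in RE cells, where *Thy1* was at the floor in all 6 libraries. *Pdgfrb*, at 451 and 408 ppm, and *Col1a1*, at 548 and 438 ppm, made up most of the sum in M cells. By contrast, *Dcn* was lowest in M cells, at 0 and 0.00678 ppm. *Dcn* was at 0.498 and 0.305 ppm in the E libraries and at 3.79 and 1.75 ppm in the RE libraries. The 5 macrophage markers summed to 6.87 to 10.7 ppm in E cells, 32.7 to 36.97 ppm in M cells and 7.43 to 7.61 ppm in RE cells. Most of the M sum was *Csf1r*, at 25.5 and 29.9 ppm, whereas *Ptprc*, the pan-leukocyte gene, was at the floor in all 6 libraries and *Emr1* was at most 0.0969 ppm. *Cd68* was between 5.17 and 9.30 ppm in all 6 libraries. The 3 skeletal muscle markers summed to 1.25 to 1.52 ppm in E cells, 12.4 to 13.2 ppm in M cells and 1.12 to 1.22 ppm in RE cells. Of these, *Acta1* alone was high in M cells, at 12.8 and 12.2 ppm, while *Des* was highest in E cells, at 0.622 and 0.881 ppm, and *Myh3* was at most 0.0929 ppm. The 5 endothelial markers summed to 0.374 to 0.625 ppm in E cells, 2.67 to 2.73 ppm in M cells and 0.493 to 0.539 ppm in RE cells. *Cdh5*, at 2.30 and 2.07 ppm, made up most of this sum in M cells. The part of these genes in the *Igf1* result was not tested.

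*Igf2*, the fetal growth factor expressed from an imprinted locus, was near absent. It had 1 and 0 reads' worth of coverage in the E libraries, 0.9 and 0 in the M libraries, and 23 and 6 in the RE libraries. Only the RE libraries were above the floor, at 0.487 and 0.137 ppm. Against the floor of 3 reads per library, the RE mean was at least 4.19-fold higher than in E cells and at least 4.34-fold higher than in M cells. For the lower RE library alone these bounds were 1.84 and 1.90. In a fit without the filter, the E vs. RE log2 fold change of *Igf2* was 1.75 with a limma adjusted p of 0.0325, and it was not called.

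The receptors were expressed at high coverage in all states and neither was called in any comparison. *Igf1r*, the signalling receptor, was at 84.7 and 168 ppm in the E libraries, 187 and 213 ppm in the M libraries, and 175 and 158 ppm in the RE libraries. Both M libraries were above all others, while the E libraries were on either side of the lower RE library. The log2 fold change was 0.74 in E vs. M (95% confidence interval 0.06 to 1.42, limma adjusted p = 0.0769), -0.26 in M vs. RE (-0.94 to 0.42, limma adjusted p = 0.538) and 0.48 in E vs. RE (-0.20 to 1.16, limma adjusted p = 0.243). The result turned on the E libraries. The E vs. M value was 0.24 without E replicate 1 and 1.23 without E replicate 2. In E vs. RE these values were -0.02 and 0.97. A fit with 1 E library holds no spread between E libraries, so no p-value is given for it. When each library's trend on transcript length and GC content was removed, E vs. M was 0.27 and E vs. RE 0.01. The spread of the E libraries also widened the M vs. RE interval above. With M and RE cells fitted alone, M vs. RE was -0.26 (SE 0.088, limma adjusted p = 0.0223), under the fold threshold.

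*Igf2r*, the scavenging receptor, was at 293 and 495 ppm in the E libraries, 359 and 374 ppm in the M libraries, and 318 and 286 ppm in the RE libraries. The E libraries lay on either side of both M libraries and of the higher RE library, and the lower RE library was below them all. The log2 fold change was -0.06 in E vs. M (95% confidence interval -0.61 to 0.50, limma adjusted p = 0.866), -0.28 in M vs. RE (-0.83 to 0.27, limma adjusted p = 0.409) and -0.34 in E vs. RE (-0.89 to 0.22, limma adjusted p = 0.310). Its direction also depended on the E libraries, with E vs. M at -0.44 without E replicate 1 and at 0.32 without E replicate 2, and E vs. RE at -0.72 and 0.03. After removal of the length and GC trend, *Igf2r* was at -0.46 in E vs. M and at -0.78 in E vs. RE (limma adjusted p = 0.000974), under the fold threshold. The M vs. RE interval above also holds the spread of the E libraries. With M and RE cells fitted alone, *Igf2r* was at -0.28 in M vs. RE (SE 0.081, limma adjusted p = 0.00993), also under the fold threshold. Part of *Igf2r* is overlapped by the antisense transcript *Airn*, and strand was not stated, so reads in the overlap cannot be assigned to 1 of them. *Airn* coverage was at most 1.41 ppm.

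Among the binding proteins, *Igfbp4* had the reverse order of *Igf1*, highest in E cells, lowest in M cells and intermediate in RE cells. IGFBP4 is a soluble inhibitor of IGF action that PAPP-A cleaves in the presence of IGF. Its coverage was 4.07 and 8.64 ppm in the E libraries, 0.0236 and 0.237 ppm in the M libraries, and 0.829 and 0.575 ppm in the RE libraries. The states did not overlap, but the M libraries held only 1 and 9.8 reads' worth, the first of them below the floor. The E mean, 6.35 ± 3.23 ppm (SD), was 48.7-fold the M mean of 0.130 ± 0.151 ppm and 26.8-fold the higher M library (E vs. M log2 fold change -4.89, SE 0.55, limma adjusted p = 0.000581). The RE mean of 0.702 ± 0.180 ppm was 5.38-fold the M mean, which was not called (M vs. RE 1.95, SE 0.55, limma adjusted p = 0.0322). The E mean was 9.05-fold the RE mean (E vs. RE -2.93, SE 0.55, limma adjusted p = 0.00824).

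The E vs. M fall of *Igfbp4* was -5.41 without E replicate 1, -4.35 without E replicate 2, -4.16 without M replicate 1 and -5.63 without M replicate 2, and it kept its call without any of the 6 libraries. With a pseudocount of 1 ppm in place of 0.1 it was -2.63, and with 0.025 it was -5.72. E vs. RE was -3.47 without E replicate 1 and -2.40 without E replicate 2. Without either RE library the E vs. RE call was lost (-3.14, limma adjusted p = 0.0633, without replicate 1 and -2.68, limma adjusted p = 0.0672, without replicate 2). It was also lost with a pseudocount of 0.025 (-3.06, limma adjusted p = 0.0254), without the filter (-2.93, limma adjusted p = 0.0157) and with array weights (-2.93, limma adjusted p = 0.0173). M vs. RE was 1.94 without E replicate 1 and 1.95 without E replicate 2, in fits whose error leaves out the spread between the E libraries. With all libraries M vs. RE was 1.95. It was 1.22 (limma adjusted p = 0.184) without M replicate 1, 2.69 (limma adjusted p = 0.0216) without M replicate 2, 1.73 (limma adjusted p = 0.194) without RE replicate 1 and 2.19 (limma adjusted p = 0.0983) without RE replicate 2. With a pseudocount of 1 ppm it was 0.59 (limma adjusted p = 0.164). Adipocyte markers, which summed to 3.17 to 9.13 ppm in E cells, 0.0553 to 0.101 ppm in M cells and 1.93 to 2.28 ppm in RE cells, had the same order of states as *Igfbp4*. Of these 5 genes 4, among them *Adipoq*, were at the floor in all 6 libraries, and *Fabp4* made up the rest. Between the E libraries the 2 genes went opposite ways, with *Fabp4* at 9.01 and 3.14 ppm and *Igfbp4* at 4.07 and 8.64 ppm. Several epithelial markers were also lower outside E cells, such as *Epcam*, at 348 and 282 ppm in the E libraries, 121 and 137 ppm in the M libraries, and 130 and 135 ppm in the RE libraries, and *Cldn7*, at 132 and 118 ppm, 33.7 and 32.6 ppm, and 51.6 and 47.4 ppm. Other epithelial markers did not follow this order. *Krt8* was highest in M cells, with means of 203, 316 and 127 ppm in E, M and RE cells. For *Cdh1* these means were 305, 272 and 269 ppm. The part of these genes in the *Igfbp4* result was not tested.

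*Igfbp7*, whose product binds IGFs with low affinity and is deposited in the matrix, was at 315 and 292 ppm in the E libraries, 466 and 416 ppm in the M libraries, and 328 and 378 ppm in the RE libraries. M cells were highest and E cells lowest without overlap, but the differences were under the fold threshold. The log2 fold change was 0.54 in E vs. M (95% confidence interval 0.21 to 0.87, limma adjusted p = 0.0189), -0.32 in M vs. RE (-0.65 to 0.00, limma adjusted p = 0.120) and 0.22 in E vs. RE (-0.11 to 0.54, limma adjusted p = 0.271). E vs. M was 0.59 without E replicate 1 and 0.48 without E replicate 2, and E vs. RE was 0.27 and 0.15. In E vs. M it was 0.93 after removal of the length and GC trend (limma adjusted p = 0.000394) and 0.26 with library totals in place of TMM normalization (limma adjusted p = 0.161).

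*Igfbp3*, the main carrier of IGFs in blood, was low throughout. It was at 0.829 and 0.852 ppm in the E libraries, 1.90 and 1.17 ppm in the M libraries, and 0.678 and 1.44 ppm in the RE libraries. The M libraries were above the E libraries, and the RE libraries spanned both E values. None of the comparisons was called, with log2 fold changes of 0.76 in E vs. M (95% confidence interval -0.16 to 1.68), -0.54 in M vs. RE (-1.46 to 0.37) and 0.22 in E vs. RE (-0.70 to 1.13). It was 0.73 in E vs. RE without RE replicate 1 and -0.26 without RE replicate 2. Without E replicate 1 the E vs. M and E vs. RE values were 0.73 and 0.19, and without E replicate 2 they were 0.77 and 0.23.

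The other binding proteins were at the limit of detection. *Igfbp2* had 0 and 2 reads' worth in the E libraries, 0 and 0 in the M libraries, and 20.0 and 7.48 in the RE libraries, so that, like *Igf2*, it was above the floor in RE cells alone. The RE mean was at least 3.99-fold higher than in E cells and at least 4.13-fold higher than in M cells, or at least 2.29-fold and 2.37-fold for the lower RE library. *Igfbp5* did not exceed 2 reads' worth in any library. *Igfbp6*, which prefers IGF2 as a ligand, had between 3 and 10 reads' worth in each library, and its states overlapped in E vs. RE and M vs. RE.

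**Figure D3:**
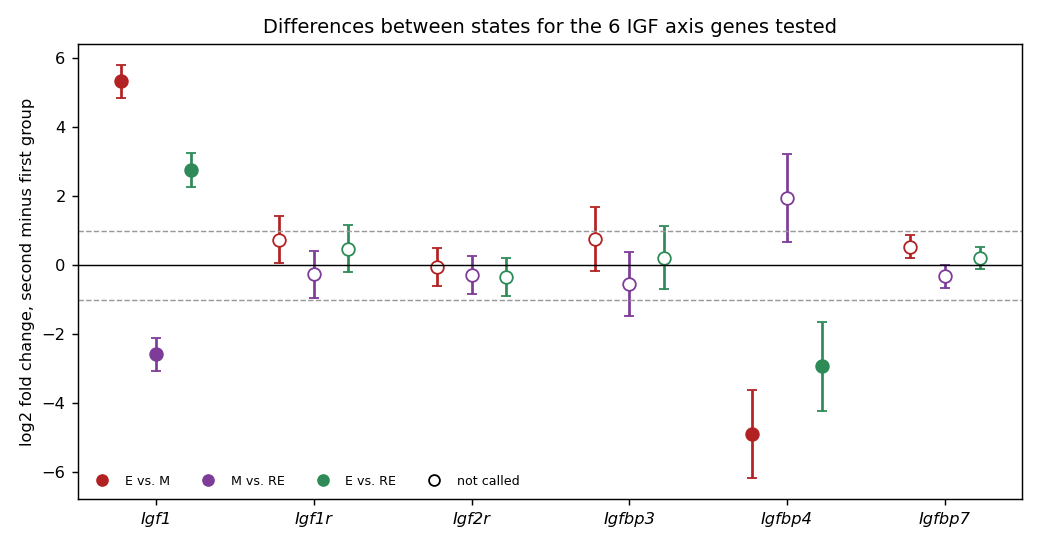
log2 fold changes with 95% confidence intervals (vertical axis) for the 6 tested IGF axis genes (horizontal axis) in the 3 comparisons, with filled points for calls and dashed lines at 1 and -1. *Igf1* was called in all 3 comparisons and *Igfbp4* in E vs. M and E vs. RE, while the intervals of the other 4 genes include differences under 1 in size.

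Levels were compared between genes as ppm per kb of transcript. In E cells *Igfbp7* led with 253 ppm per kb, ahead of *Igf2r* with 44.4 and *Igf1r* with 11.1. In M cells these levels were 368, 41.3 and 17.5 ppm per kb, and in RE cells 294, 34.0 and 14.6 ppm per kb. Neighbours in this order of 3 did not overlap in any state. *Igfbp7* made up between 99.1% and 99.8% of the summed level per kb of the 6 binding proteins in each state. *Igf1* moved along the order, from the seventh place in E cells (0.0466 ppm per kb) to the fourth in M cells (2.43 ppm per kb) and the fifth in RE cells (0.397 ppm per kb). *Igfbp4* moved from the fourth place in E cells (1.66 ppm per kb) to the seventh in M cells (0.0341 ppm per kb). In RE cells *Igf1* overlapped *Igfbp3* at 0.437 ppm per kb, and the levels of *Igfbp2*, *Igfbp4*, *Igfbp6* and *Igf2*, between 0.227 and 0.0660 ppm per kb, overlapped from neighbour to neighbour. In E cells *Igfbp2*, *Igf2* and *Igfbp5*, the lowest 3, overlapped likewise.

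Genes that act on binding proteins were read next. Of 8 genes listed for IGF binding and proteolysis, 5 were tested. In E vs. M, 1 was called higher and 2 lower, in M vs. RE 3 were called higher, and in E vs. RE 2 were called higher and 1 lower. That is 3 of 5 in each comparison, where 16.7%, 12.7% and 9.07% of all tested genes were called. The list was chosen with earlier results of these data known, so its share is a description only. The median log2 fold changes of the 5 genes were -0.27, 1.49 and 1.21, beside -0.02, -0.01 and -0.00 for all tested genes. *Pappa*, which encodes the protease of IGFBP4, was at 0.163 and 0.0527 ppm in the E libraries, 0.542 and 1.10 ppm in the M libraries, and 1.83 and 1.52 ppm in the RE libraries. It was higher in M and RE cells than in E cells (E vs. M 2.14, limma adjusted p = 0.00640, and E vs. RE 3.14, limma adjusted p = 0.00258), with 7 and 2 reads' worth in E cells. Without E replicate 1 these values were 2.51 and 3.51, and without E replicate 2 they were 1.74 and 2.74. The E vs. M call of *Pappa* was lost without any 1 of the M and RE libraries (1.70 and limma adjusted p = 0.0554 without M replicate 2), with a pseudocount of 1 ppm (0.70) and after removal of the length and GC trend (1.62, limma adjusted p = 0.0253). In E vs. RE it was lost without RE replicate 1 (3.03, limma adjusted p = 0.0420) and without RE replicate 2 (3.27, limma adjusted p = 0.0269).

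*Pappa2*, whose product cleaves IGFBP3 and IGFBP5, was at 7.09 and 18.0 ppm in the E libraries, 0.731 and 0.609 ppm in the M libraries, and 67.8 and 50.9 ppm in the RE libraries. It fell in M cells and was above the E level in RE cells. The log2 fold change was -3.89 in E vs. M (limma adjusted p = 0.000412), 6.26 in M vs. RE (limma adjusted p = 6.29e-05) and 2.37 in E vs. RE (limma adjusted p = 0.00602). Without E replicate 1 the E vs. M and E vs. RE values were -4.56 and 1.70, and without E replicate 2 they were -3.23 and 3.02. The E vs. RE call was lost without any 1 of the M and RE libraries (limma adjusted p between 0.0161 and 0.0744).

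The stanniocalcins encode secreted inhibitors of these proteases. *Stc2* was at 109 and 159 ppm in the E libraries, 1.54 and 1.45 ppm in the M libraries, and 29.2 and 22.4 ppm in the RE libraries. Its fall in E vs. M (-6.37, SE 0.22, limma adjusted p = 1.41e-05) was larger than any other in the pathway lists, and its M vs. RE rise was 4.01 (limma adjusted p = 3.59e-05). RE cells stayed below E cells (E vs. RE -2.36, limma adjusted p = 0.000832), a call that was lost without RE replicate 1 (-2.54, limma adjusted p = 0.0161) and RE replicate 2 (-2.16, limma adjusted p = 0.0151). E vs. M and E vs. RE were -6.65 and -2.64 without E replicate 1, and -6.11 and -2.10 without E replicate 2. *Stc1* was at 0.493 and 0.685 ppm in the E libraries, 0.426 and 0.506 ppm in the M libraries, and 1.66 and 1.32 ppm in the RE libraries. Its M vs. RE rise (1.49, limma adjusted p = 0.00848) was lost without any 1 of the M and RE libraries (limma adjusted p between 0.0437 and 0.0910). *Htra1*, encoding a serine protease that also cleaves binding proteins, was between 328 and 540 ppm in all libraries and was not called.

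**Figure D4:**
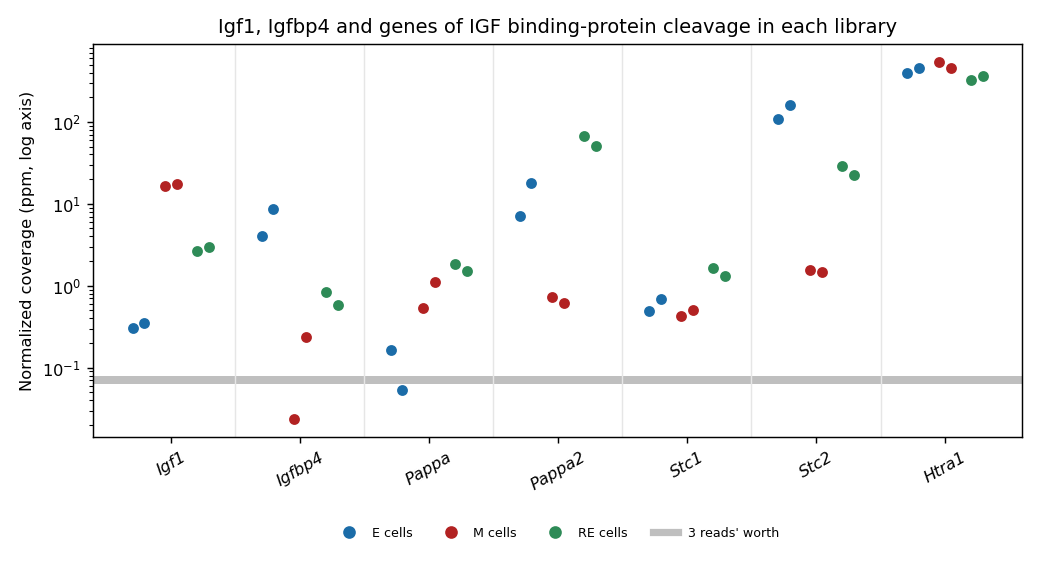
Normalized coverage (vertical axis, ppm on a log scale) of *Igf1*, *Igfbp4* and the 5 tested genes of binding-protein proteolysis, with 1 point per library coloured by state and a grey band at 3 reads' worth. *Pappa2* and *Stc2* are lowest in the M libraries, whereas *Igf1* is highest there and *Htra1* stays between 328 and 540 ppm.

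Across all 7 pathway lists, 53 genes were named, 49 were analysed and 44 were tested. In each comparison 8 of the 44 were called, or 18.2%. The shares called among all tested genes were, in the order of the comparisons above, 16.7%, 12.7% and 9.07%. As the lists were chosen with earlier results of these data known, their shares are a description only. The calls were 4 higher and 4 lower in E vs. M, 7 higher and 1 lower in M vs. RE, and 7 higher and 1 lower in E vs. RE. The median log2 fold changes were 0.20, 0.10 and 0.49. The E vs. RE count was larger without E replicate 2 and smaller without any other library, and it was lowest without either RE library. The cause was not tested. The E vs. M count was larger without E replicate 2 and smaller without either M library. The shares of all tested genes called in these fits were not computed, so the moves cannot be read as particular to the pathway.

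The insulin receptor, the 1 gene tested among the ligands and receptors of insulin, was not called. *Insr* was at 30.5 and 88.7 ppm in the E libraries, 64.7 and 73.2 ppm in the M libraries, and 82.8 and 77.0 ppm in the RE libraries, so that the E libraries spanned all others. Without E replicate 2 the comparison rests on 1 E library at 30.5 ppm. The calls of *Insr* as higher in M and RE cells there do not measure the spread between E libraries. None of the 5 genes for the *Igf2* locus and mRNA binding was called in any comparison. The shares of all tested genes called were 16.7%, 12.7% and 9.07%. Among 7 adaptors, 0 were called in E vs. M and 1 (14.3%) in each of M vs. RE and E vs. RE. This was *Grb14*, which encodes an inhibitory adaptor of the insulin receptor (M vs. RE 1.90, limma adjusted p = 0.000204, and E vs. RE 1.25, limma adjusted p = 0.00240). It was at 79.4 and 58.4 ppm in the E libraries, 43.0 and 43.9 ppm in the M libraries, and 161 and 163 ppm in the RE libraries. For *Grb14* the E vs. RE call was lost without any 1 of the M and RE libraries (limma adjusted p between 0.0109 and 0.0381), and the value was 1.47 without E replicate 1 and 1.02 without E replicate 2.

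Of 11 genes of phosphoinositide 3-kinase and Akt, 2 were called in E vs. M (18.2%, against 16.7% of all tested genes), 3 in M vs. RE (27.3%, against 12.7%) and 2 in E vs. RE (18.2%, against 9.07%). *Pik3r1*, which encodes the p85α regulatory subunit, was at 148 and 218 ppm in the E libraries, 36.8 and 37.6 ppm in the M libraries, and 386 and 344 ppm in the RE libraries. It fell in E vs. M (-2.27, limma adjusted p = 0.000170) and rose in M vs. RE (3.29, limma adjusted p = 4.27e-05). Its E vs. RE call (1.02, limma adjusted p = 0.00815) lay at the fold threshold and was lost without E replicate 1 (0.74), without any 1 of the M and RE libraries, and after removal of the length and GC trend (0.56). *Pik3r3*, encoding another regulatory subunit, was at 11.3 to 13.4 ppm in the E and M libraries and at 113 and 91.3 ppm in the RE libraries. It rose in RE cells against both other states (M vs. RE 2.94, limma adjusted p = 3.59e-05, and E vs. RE 3.05, limma adjusted p = 0.000279), and the second call was lost without RE replicate 1 (2.91, limma adjusted p = 0.0103). *Akt1* was at 188 and 199 ppm in the E libraries, 404 and 392 ppm in the M libraries, and 192 and 204 ppm in the RE libraries. Its calls lay at the fold threshold (E vs. M 1.04, limma adjusted p = 0.000665, and M vs. RE -1.01, limma adjusted p = 0.000948). With library totals in place of TMM normalization the values were 0.76 and -0.81, where the median of all tested genes moved to -0.29 and 0.18. The E vs. M call of *Akt1* was also lost without E replicate 1 (0.99) or either M library, and the M vs. RE call without any 1 of the M and RE libraries (-0.95 without RE replicate 1).

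Of 7 mTOR genes, 2 were called in E vs. M (28.6%, against 16.7% of all tested genes). In M vs. RE 1 was called (14.3%, against 12.7%), and in E vs. RE 2 were (28.6%, against 9.07%). These were *Rictor* and *Deptor*, and in M vs. RE *Deptor* alone. *Rictor*, which encodes the defining subunit of mTORC2, was at 27.8 and 53.6 ppm in the E libraries, 126 and 141 ppm in the M libraries, and 168 and 137 ppm in the RE libraries. It was higher in M cells (1.79, limma adjusted p = 0.00280) and in RE cells (1.97, limma adjusted p = 0.00355) than in E cells. The E vs. M value was 1.31 without E replicate 1 and 2.25 without E replicate 2, and the call was lost without either M library (limma adjusted p = 0.0210 and 0.0278). The E vs. RE call was lost without any 1 of the M and RE libraries (limma adjusted p between 0.0116 and 0.0512). *Deptor*, encoding an inhibitor of mTOR, was at 4.55 and 6.34 ppm in the E libraries, 1.11 and 1.15 ppm in the M libraries, and 16.6 and 19.9 ppm in the RE libraries. It fell in E vs. M (-2.16, limma adjusted p = 0.000412), rose in M vs. RE (3.90, limma adjusted p = 4.17e-05) and was above E cells in RE cells (1.74, limma adjusted p = 0.00223), the last of which was lost without RE replicate 1 (1.89, limma adjusted p = 0.0309) and RE replicate 2 (1.63, limma adjusted p = 0.0318). E vs. M and E vs. RE of *Deptor* were -2.39 and 1.5005 without E replicate 1, and -1.93 and 1.97 without E replicate 2. Of 8 targets and feedback genes, 1 was called in E vs. M (12.5%, against 16.7% of all tested genes) and 0 in the other comparisons. This was *Socs2*, which encodes a suppressor of growth hormone signalling (E vs. M 1.15, limma adjusted p = 0.00360). It was at 2.00 and 2.03 ppm in the E libraries, 4.74 and 4.42 ppm in the M libraries, and 3.84 and 3.37 ppm in the RE libraries. That call was lost without any 1 of the M and RE libraries (limma adjusted p between 0.0130 and 0.0409) and with library totals (0.88), and the value was 1.13 without E replicate 1 and 1.15 without E replicate 2.

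**Figure D5:**
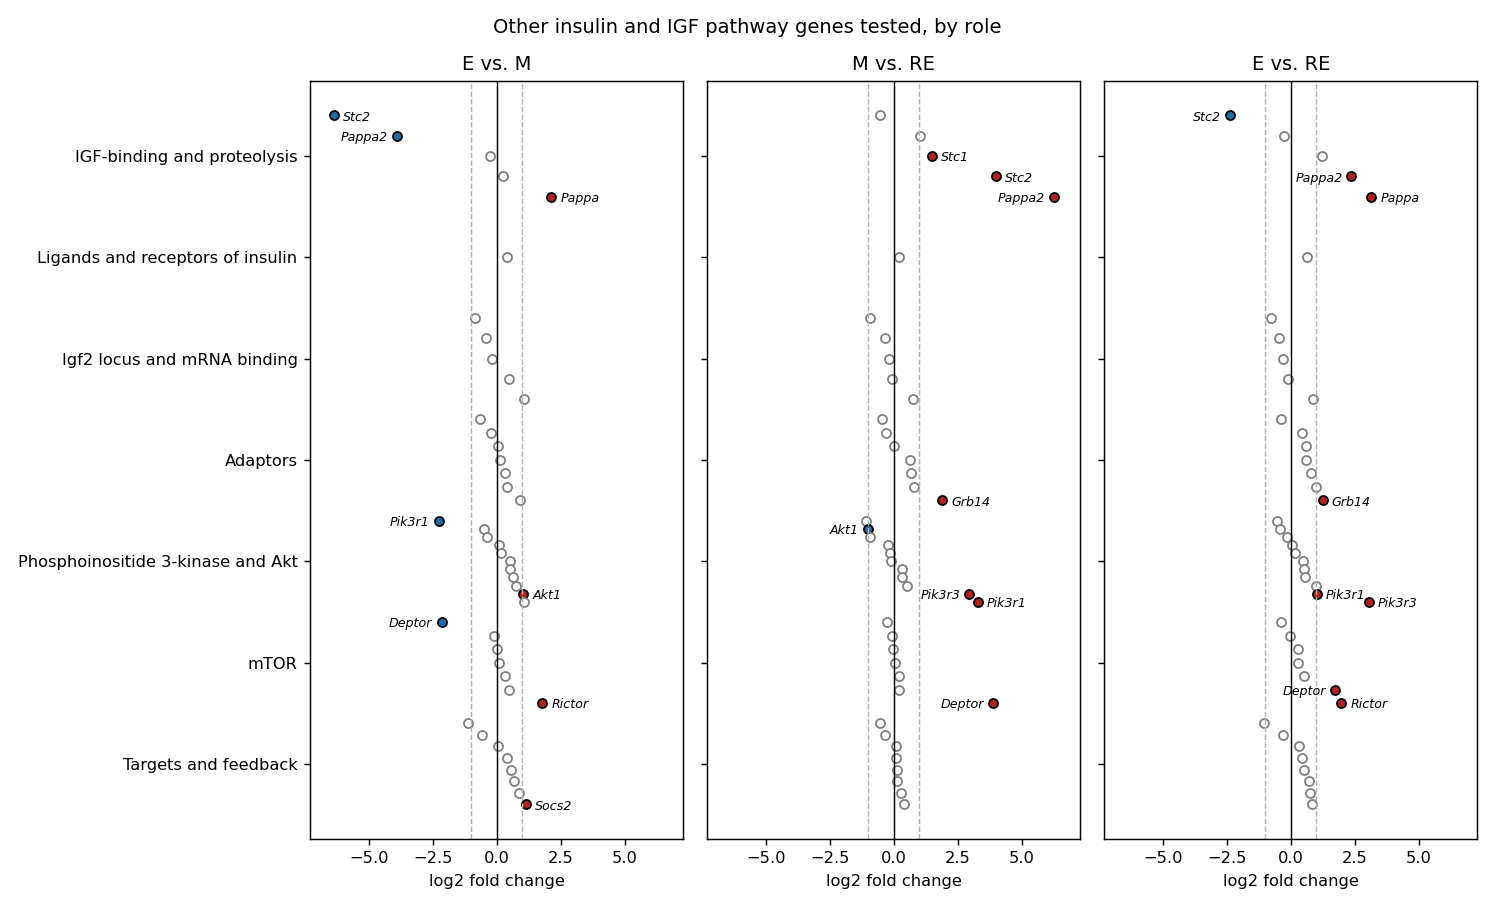
log2 fold changes (horizontal axis) of the 44 other insulin and IGF pathway genes tested, in 7 rows by role, with 1 panel per comparison, dashed lines at 1 and -1 and filled, named points for calls (red higher, blue lower). *Stc2* lies farthest left in E vs. M at -6.37 and *Pappa2* farthest right in M vs. RE at 6.26.

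The genes most like an IGF axis gene in their pattern were taken by Euclidean distance over the 6 libraries on centred log2 values, for the 3 tested genes with the largest range between states. For *Igf1*, the nearest of 10093 genes were *Has2*, a hyaluronan synthase, at a distance of 0.969, *Atp2b4*, a plasma membrane calcium pump, at 1.24, and *Col4a3*, a type IV collagen chain, at 1.29, where the median distance was 5.35. *Has2* was at 5.88 ± 0.566 ppm in E cells, 177 ± 17.1 ppm in M cells and 21.6 ± 3.30 ppm in RE cells. For *Igfbp4*, they were *Myh14*, a non-muscle myosin heavy chain, at 1.27, *Reep6* at 1.63 and *Chchd10* at 1.84, with a median of 5.16. *Myh14* was at 925 ± 237 ppm in E cells, 42.8 ± 12.0 ppm in M cells and 241 ± 9.71 ppm in RE cells. For *Igfbp3*, which varied little, *Klf16*, *Mov10* and *Cited2* were nearest, at 0.573 to 0.630, with a median of 1.34. These distances are a description over 6 libraries and were not tested.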

How the data were processed

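RNA of E, M and RE cells of the mouse line EpH4 was sequenced in 6 libraries, 2 per state. Column names, which give state and replicate, tied each column to a library. Reads were aligned by the authors to NCBI-m37 using Bowtie and TopHat2. Their deposited table holds unnormalized whole numbers of the unit signal: a gene's value is its coverage summed in bases rather than a number of reads. Among values from 1 to 400, between 44.8% and 48.4% per library were multiples of 50. How coverage was summed over genes, on which annotation and with which tool versions is not given in the sources used here, so overlapping genes may share coverage. The edgeR test named in the study's methods needs read counts and was not run.

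Coverage was scaled to ppm after TMM normalization without weights (30% and 5% trimmed, factors from 0.883 to 1.11). The 13893 genes that reached 500 bases in 2 or more libraries were fitted with limma 3.58.1 in R 4.3.3 on log2(ppm + 0.1), all 6 libraries, state only, with a trend on mean level. The unit, filter, pseudocount and thresholds of a log2 fold change of 1 and adjusted p of 0.01 decide the calls. On simulated data with changes of 2 on the log2 scale in E vs. M, 61.5% of 195 changed genes among 13547 were recovered and 0 unchanged genes were called. The simulated noise was independent between genes and of the same size in every state. It left out the larger, length-linked difference between the E libraries, so the share of false calls in these data was not measured. P-values measure only the spread between these samples. Depths and floors cover counting error only.

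The members and lists were chosen with earlier results of these data known. Named are all members, pathway genes that were called, markers, and the 3 genes nearest to each of the 3 members with the largest range, among genes with a mean log2 value of at least 2. *Insr*, *Htra1* and *Airn* were named after their values were seen. *Igfbp1*, *Igfbpl1*, *Ins1*, *Ins2* and the markers *Lum*, *Myod1* and *Myog* were not analysed here. Older gene symbols were matched through RefSeq synonyms. Transcript length and GC content came from a newer annotation (GENCODE M21) and matched 12961 of the tested genes (93.3%). Alternatives were other scalings, pseudocounts, filters, array weights, thresholds, a replicate block, fits of 2 groups, each library left out and, chosen after the data were seen, removal of each library's trend on length and GC content.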

Additional observations from a re-analysis of the deposited data

How the results depend on the processing

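Of the log2 fold changes of single IGF axis genes under the alternatives, 321 kept their direction and their side of the thresholds, 7 passed them, 7 no longer did and 4 reversed. For *Igf1*, E vs. M values lay between 3.77 and 5.61, M vs. RE values between -2.75 and -2.26, and E vs. RE values between 1.52 and 3.00. For *Igfbp4*, E vs. M values lay between -5.72 and -2.63, M vs. RE values between 0.59 and 2.69, and E vs. RE values between -3.47 and -2.04. With 1 library left out, the lone library of its state is assumed to vary like the other states. The lowest and highest values were then -0.020 and 0.97 for *Igf1r* in E vs. RE, -0.44 and 0.32 for *Igf2r* in E vs. M, -0.72 and 0.035 for *Igf2r* in E vs. RE, and -0.26 and 0.73 for *Igfbp3* in E vs. RE.

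The number of IGF axis genes called was 2 in E vs. M, but 1 with the filter applied in every library, where *Igfbp4* was not tested. In M vs. RE it was 1, but 2 with array weights, with the 2 states fitted alone, with an adjusted p of 0.05 and with the trend on length and GC content removed under the replicate block, and 1 to 2 with a library left out, each time by the addition of *Igfbp4*. In E vs. RE it was 2, but 1 with a pseudocount of 0.025, without the filter, with the filter in every library and with array weights, and 0 to 2 with a library left out. The gene lost in the first 4 of these was *Igfbp4*. The number of pathway genes called, 8 in each comparison, was 4 to 14 in E vs. M and 0 to 18 in E vs. RE with a library left out, and 4 in E vs. RE with the 2 states fitted alone. Why these counts moved was not tested. Same-numbered libraries deviated with correlations of 0.267 (E and M), 0.0580 (E and RE) and 0.116 (M and RE). These values cannot tell whether same-numbered libraries were handled together. With the replicate block, 2, 1 and 2 IGF axis genes were called as before, while *Pik3r1* in E vs. RE (limma adjusted p = 0.0114) and *Stc1* in M vs. RE (limma adjusted p = 0.0114) were not. *Igf2*, *Igfbp2*, *Igfbp5* and *Igfbp6* did not reach the filter, and counts of calls do not cover them.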
